A study of Mus musculus with 2 samples.

Results

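The genes described here are 10 genes of antigen presentation by major histocompatibility complex (MHC) class I in mouse liver cells. They are the class I chains B2m, H2-K1, H2-D1, H2-Q7 and H2-T23, the peptide-loading genes Tap1 and Tapbp, and the immunoproteasome subunits Psmb8, Psmb9 and Psmb10. They were taken by gene symbol from the 55357 gene rows of the series, and the list was chosen with earlier results of these data known. Each of the 10 symbols stood on 1 row in both libraries. All 10 were detected in both, a UMI being 1 counted RNA molecule. Over the 7 main cell types described below, Psmb10 was the sparsest at 3037 UMIs in the CCl4+IPA library and 3044 UMIs in the CCl4 library.

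The study sequenced single cells of mouse liver by 10x Genomics 3′ chemistry in 2 groups with 1 library each. The first group had liver fibrosis brought on by carbon tetrachloride (CCl4), a liver toxin, and was treated with indole propionic acid (IPA), a metabolite of tryptophan made by gut bacteria. The second group had the same CCl4 fibrosis without IPA, so both groups carried the injury and no healthy liver was among them. The strain, age and sex of the mice, the dose of IPA and the number of animals behind a library are not given in the sources used here. With 1 library a group no test between groups was possible, so every interval below covers counting error only.

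MHC class I molecules show peptides from inside a cell to CD8 T cells and are ligands for receptors of natural killer (NK) cells. Proteasomes cut proteins to peptides, the TAP transporter carries the peptides into the endoplasmic reticulum, tapasin helps to load them on a heavy chain paired with beta-2 microglobulin, and the loaded complex travels to the cell surface. Interferon gamma, made mainly by T and NK cells, acts through factors such as IRF1 to raise the transcription of these genes, with NLRC5 as a further activator of class I promoters, and exchanges the standard catalytic subunits of the proteasome for the immunoproteasome subunits.

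The promoters of 3 classical or closely related heavy chains are shown because all 3 carry the same run of elements. Across cell types below, H2-D1 nevertheless followed a different order from H2-K1 and H2-Q7. Promoter windows came from RefSeq on GRCm38.p6 and covered 250 bases before and 50 bases after the annotated start. All 10 genes had an entry. In each sequence, written 5′ to 3′ on the gene's strand, capitals mark, in this order, an NF-kB type element (GGGNNTTCC), an interferon response element (GAANNGAAA, here on the other strand), the TGACG core of the X2 box and 2 CCAAT boxes.
H2-K1 (chr17:34000330-34000463, minus strand): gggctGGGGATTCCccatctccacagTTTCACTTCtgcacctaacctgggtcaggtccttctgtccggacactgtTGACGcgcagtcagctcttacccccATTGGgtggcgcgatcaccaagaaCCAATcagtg
H2-D1 (chr17:35262918-35263050, plus strand): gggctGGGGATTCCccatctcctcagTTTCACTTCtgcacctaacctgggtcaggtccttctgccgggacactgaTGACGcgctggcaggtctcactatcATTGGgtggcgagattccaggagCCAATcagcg
H2-Q7 (chr17:35439017-35439148, plus strand): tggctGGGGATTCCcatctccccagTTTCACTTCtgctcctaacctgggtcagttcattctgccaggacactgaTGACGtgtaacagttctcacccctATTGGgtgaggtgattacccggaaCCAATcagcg

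Tap1 and Psmb9 lie head to head, and their windows share 275 bases. The window of Tap1 is shown because both genes are read from this stretch in opposite directions and yet differed in how they compared between the libraries. Capitals mark a CCAAT box and a TGACG motif.
Tap1 (chr17:34187306-34187605, plus strand): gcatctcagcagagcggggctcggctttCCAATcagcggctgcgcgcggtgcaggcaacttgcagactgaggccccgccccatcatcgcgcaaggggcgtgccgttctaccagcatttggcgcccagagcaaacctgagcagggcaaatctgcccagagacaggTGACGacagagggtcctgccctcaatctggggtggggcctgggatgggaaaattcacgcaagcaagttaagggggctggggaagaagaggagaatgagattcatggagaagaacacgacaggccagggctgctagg

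Across all 10 promoter windows, 8 motifs were searched on both strands, and no 2 matches in a member shared a base. The element GAANNGAAA was found in 3 members (H2-D1, H2-K1 and H2-Q7) and in 7.52% of all 32851 promoter windows. The tandem interferon-stimulated response element was found in 2 (B2m and H2-T23) and in 3.44% of all windows. GGGNNTTCC was found in the same 3 members as GAANNGAAA and in 5.82% of windows, and the NF-kB type element with longer spacing in B2m and 1.63%. TGACG was found in 6 members against 20.8% of windows, CCAAT in 8 against 37.4%, GGGCGG in 3 (Psmb9, Tap1 and Tapbp) against 35.7%, and the gamma-activated site TTCNNNGAA in Psmb8 and 8.30% of windows. Tap1 and Psmb9 matched the same 3 motifs, and did so at the same bases of the stretch their windows share, read on opposite strands. Each of these sites was therefore counted in both members, so the 2 genes do not add separate sites to those counts. A match describes letters and was not tested as a binding site.

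The 2 libraries differed beyond these genes. After removal of low-quality barcodes and predicted doublets, 10128 cells of the CCl4+IPA library and 10016 cells of the CCl4 library were analysed. Over all deposited barcodes, before this removal, the median was 2771 and 3172 UMIs per barcode. The libraries had 23 cell barcodes in common. The ribosomal RNA gene Rn18s-rs5 took 7060 to 13026 UMIs per 1000000 in the CCl4+IPA library, against 63006 to 85551 in the CCl4 library, over the 7 main cell types, and mitochondrial genes took 0.613% to 2.22% against 1.46% to 4.44%. The median gene was listed higher with IPA in every type, by 0.14 (neutrophils) to 0.28 (T cells) on the log2 scale. With mitochondrial, ribosomal and immunoglobulin genes out of the total, that median ran from -0.02 (monocytes) to 0.06 (T cells). Library differences below are given against both 0 and the median from the full total. In clusters built without the pathway genes, 1 B cell cluster held 2485 CCl4+IPA and 161 CCl4 cells and another held 175 and 1785. How much of any difference between the libraries these shifts carry was not tested.

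Cell types were gated by marker genes: a cell had to carry at least 3 distinct markers (6 for hepatocytes) of 1 list and of no other, except that cells passing both the T and the NK gate were kept as a type of their own and both monocyte lists were joined. The names below stand for these gates. B cells numbered 3233 with IPA and 3780 with CCl4 alone, T cells 2860 and 2239, T cells that also passed the NK gate 552 and 360, NK cells or type 1 innate lymphoid cells (ILC1) 942 and 485, neutrophils 1014 and 812, monocytes 134 and 183, and plasmacytoid dendritic cells 171 and 193. Cells passing several other gates (721 and 1105) or none (351 and 489) were left out. Few parenchymal or stromal cells of the liver were captured, with 11 and 6 hepatocytes and 6 and 13 stellate cells or fibroblasts, so the data describe mainly leukocytes of the liver. Levels are UMIs of a gene per 1000000 UMIs of the cell type (CPM) with exact 95% Poisson intervals. They rest on 3′ tags and are compared across cell types, not between genes.

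Among the class I chains, H2-Q7, a Qa-2 heavy chain, separated the cell types most. It reached 1097 CPM with IPA and 834 CPM with CCl4 alone in plasmacytoid dendritic cells, 1048 and 997 CPM in T cells with NK genes, 961 and 801 CPM in T cells and 928 and 827 CPM in NK cells or ILC1. B cells had 366 and 320.5 CPM. Monocytes had 67.7 and 46.4 CPM and neutrophils 67.2 and 44.9 CPM, values whose intervals overlapped within each library. From the highest to the lowest type the level of H2-Q7 spanned 16.3-fold with IPA (95% interval 13.7 to 19.7) and 22.2-fold with CCl4 alone (18.2 to 27.4).

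The same cells were told apart by the share with any H2-Q7 UMI after each cell was thinned to 1000 UMIs. That share was 59.7% with IPA and 51.5% with CCl4 alone in T cells and 6.68% and 4.23% in neutrophils, from 89.8% and 89.4% in T cells and 12.5% and 9.85% in neutrophils before thinning. Thinning left out 97 and 35 T cells and 101 and 56 neutrophils with fewer UMIs. No gated type is known to lack class I, so a background share from free RNA could not be set, and the neutrophil share may hold such UMIs, which was not tested.

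H2-K1 and H2-D1, the classical heavy chains K and D that present peptides to CD8 T cells, did not follow 1 order. H2-K1 was lowest in neutrophils, at 820.2 CPM with IPA and 582 CPM with CCl4 alone, next lowest in monocytes at 1248 and 1034 CPM and in B cells at 1529.95 and 1308 CPM. It was 2684 and 2314 CPM in T cells, 2951 and 2401 CPM in T cells with NK genes, 2853 and 2507 CPM in NK cells or ILC1, and 3121 and 1969 CPM in plasmacytoid dendritic cells. The order of the top 4 types differed between the libraries, and within each library all neighbours in its own order differed beyond counting error.

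H2-D1 by contrast was lowest in B cells, at 1156 CPM with IPA and 1111 CPM with CCl4 alone, and neutrophils stood near the top at 2029 and 1769 CPM. Plasmacytoid dendritic cells had 2129 and 1798 CPM, NK cells or ILC1 1953 and 1810.2 CPM, T cells with NK genes 1850.2 and 1662 CPM, monocytes 1825 and 1665 CPM and T cells 1644 and 1517 CPM. Neutrophils did not differ from plasmacytoid dendritic cells beyond counting error in either library. As a share of the UMIs of both heavy chains, H2-K1 made 28.8% (27.6 to 30.0) with IPA and 24.8% (23.6 to 25.9) with CCl4 alone in neutrophils and 40.6% and 38.3% in monocytes. The share lay between 52.3% and 62.0% in the other 5 types, T cells having 62.0% and 60.4%. These shares rest on exact Clopper-Pearson intervals and do not depend on the total of a library.

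B2m, the beta-2 microglobulin light chain that all these heavy chains need, varied far less than H2-Q7. It was 3488 CPM with IPA and 2911 CPM with CCl4 alone in plasmacytoid dendritic cells, 3196 and 2948 CPM in T cells with NK genes, 3029 and 2650.1 CPM in NK cells or ILC1, 2882 and 2714 CPM in T cells and 2699 and 2613 CPM in monocytes. B cells had 1671 and 1673 CPM and neutrophils 1686 and 1505 CPM. The spread from highest to lowest type was 2.09-fold with IPA and 1.96-fold with CCl4 alone, against 1.84-fold and 1.63-fold for H2-D1. The joined monocyte gate thus had B2m near the level of T cells but H2-K1 below that of B cells and H2-Q7 at the level of neutrophils. Its make-up differed between the libraries, with 63 cells with IPA and 60 with CCl4 alone on the classical list alone, 58 and 77 on both lists and 13 and 46 on the nonclassical list alone. Nonclassical monocytes, which patrol vessel walls, had H2-K1 at 1808 CPM with IPA and 1815 CPM with CCl4 alone and H2-Q7 at 161 and 112 CPM, while classical monocytes had H2-K1 at 1178 and 982 CPM and H2-Q7 at 53.1 and 32.4 CPM. H2-K1 was thus below the level of B cells in the classical cells. In the nonclassical cells it was above that level with CCl4 alone (1636 to 2009). With IPA their interval (1454 to 2222, from 90 UMIs) held the B cell level. The H2-Q7 values rested on only 8 and 23 UMIs in nonclassical and 18 and 11 UMIs in classical cells.

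H2-T23 encodes Qa-1, a nonclassical heavy chain that binds inhibitory CD94/NKG2A receptors of NK and CD8 T cells. Plasmacytoid dendritic cells stood alone at 708 CPM with IPA and 537 CPM with CCl4 alone. The next main type, T cells with NK genes, had 335 and 262 CPM, a gap of 2.12-fold (1.91 to 2.35) and 2.05-fold (1.82 to 2.32). Type 2 conventional dendritic cells, a rarer gate, had 359 CPM (297 to 431) with IPA and 358 CPM (327 to 391) with CCl4 alone. With CCl4 alone they thus lay above T cells with NK genes (239 to 286), nearer to plasmacytoid dendritic cells. T cells had 314 and 231 CPM, monocytes 313 and 224 CPM, B cells 288 and 235 CPM, NK cells or ILC1 281 and 212 CPM and neutrophils 224 and 177 CPM.

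**Figure D1:**
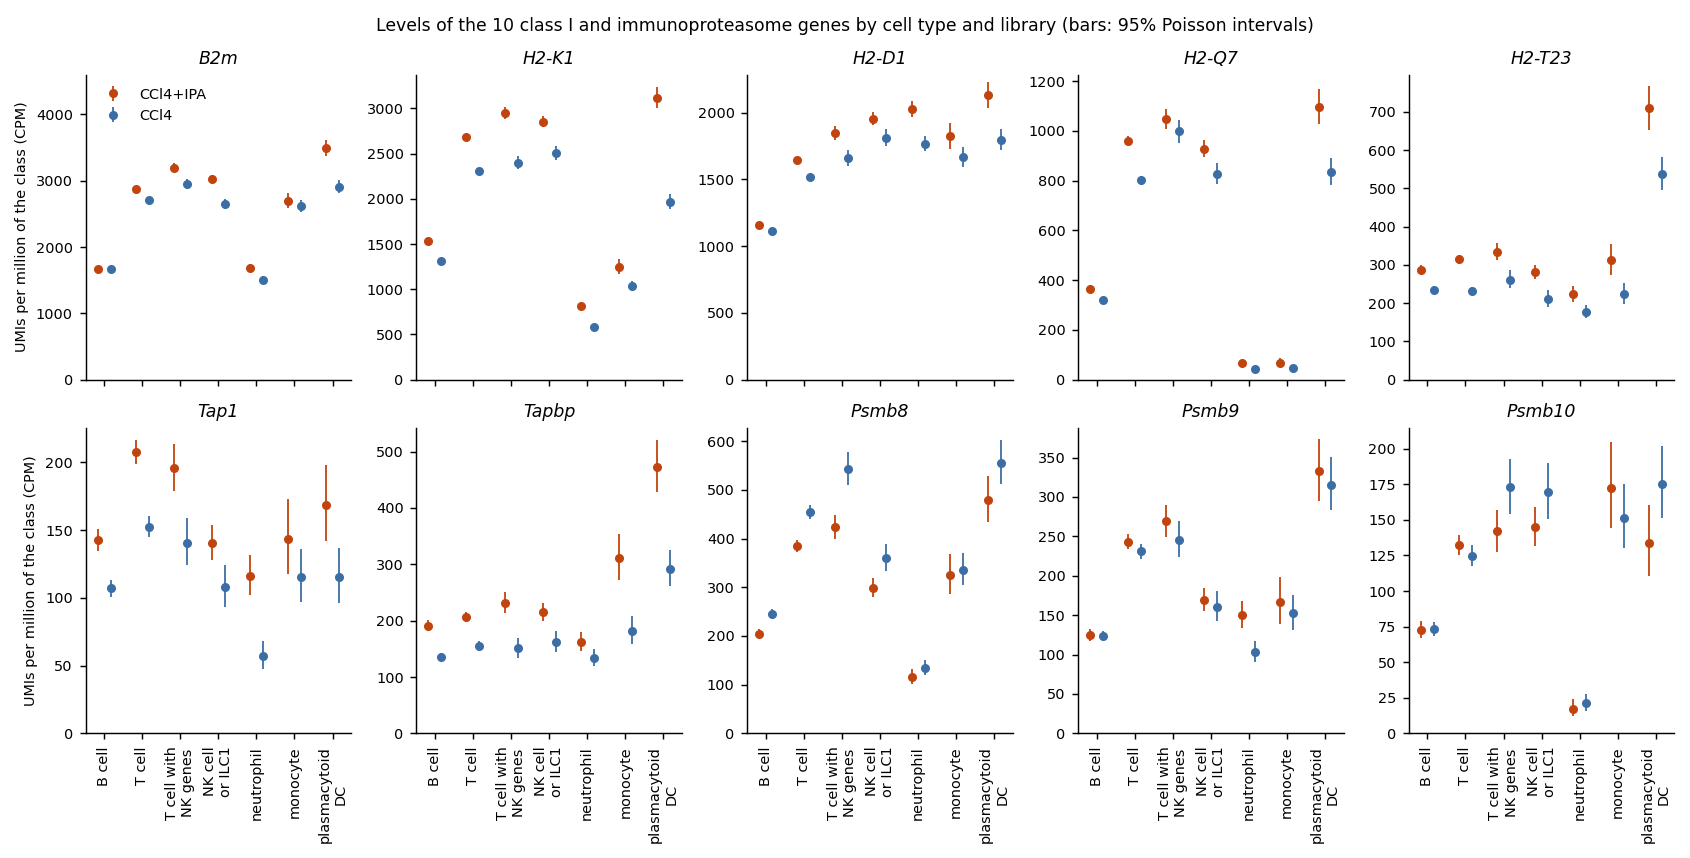
UMIs per 1000000 of the cell type (CPM) of each of the 10 genes in the 7 main cell types, with CCl4+IPA (orange) left of CCl4 (blue) and bars for 95% Poisson intervals. In neutrophils H2-Q7 is at 67.2 and 44.9 CPM and Psmb10 at 17.3 and 21.1 CPM, while H2-D1 is at 2029 and 1769 CPM.

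Among the peptide-loading genes, Tap1, a subunit of the TAP peptide transporter, was highest in T cells at 208 CPM with IPA and 153 CPM with CCl4 alone and lowest in neutrophils at 116 and 57.2 CPM. T cells with NK genes had 196 and 141 CPM, plasmacytoid dendritic cells 168 and 115 CPM, monocytes 143 and 115 CPM, B cells 143 and 107 CPM and NK cells or ILC1 140.5 and 108 CPM. In both libraries the first 6 types were each within counting error of the next, and only neutrophils stood clear below the type before them. Types farther apart did differ. With IPA the interval was 199 to 217 in T cells and 134 to 151 in B cells, and with CCl4 alone 145 to 161 and 101 to 113.

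Tapbp encodes tapasin, which bridges TAP and the empty class I molecule. It was highest in plasmacytoid dendritic cells at 473 CPM with IPA and 292 CPM with CCl4 alone. Monocytes followed at 310.4 and 182 CPM, then T cells with NK genes at 232 and 151 CPM, NK cells or ILC1 at 215 and 162 CPM, T cells at 207 and 155 CPM, B cells at 191 and 136 CPM and neutrophils at 162 and 133 CPM. With CCl4 alone the 6 types below plasmacytoid dendritic cells were each within counting error of the next, though monocytes (159 to 208) lay above B cells (129 to 143). Over 20 points (10 cell types in 2 libraries) the level of Tapbp had a Pearson correlation of -0.07 with Tap1 and -0.11 with Psmb8, while Psmb8 and Psmb9 had 0.88 and H2-K1 and H2-Q7 0.83. The 10 types were the 7 main ones and the rarer type 2 conventional dendritic, plasma and mesothelial cells. Mesothelial cells (22 and 12) had Tapbp at 624 and 438 CPM but Psmb8 at 87.6 and 242 CPM. Within the 7 main types, Tapbp and Psmb8 were both highest in plasmacytoid dendritic cells and lowest in neutrophils. The correlation over the main types alone was not computed. The points share libraries and depth, so these values are a description. Zbtb22 overlaps Tapbp on the same strand and held 478 and 389 UMIs over the 7 main types, against 5900 and 4392 of Tapbp.

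The immunoproteasome subunits replace standard subunits with altered cutting preference, Psmb8 (LMP7) in place of Psmb5, Psmb9 (LMP2) in place of Psmb6 and Psmb10 (MECL-1) in place of Psmb7. Psmb8 was 480.02 CPM with IPA and 556 CPM with CCl4 alone in plasmacytoid dendritic cells, 423 and 543 CPM in T cells with NK genes, 384 and 454 CPM in T cells, 325 and 336 CPM in monocytes, 299 and 361 CPM in NK cells or ILC1, 205 and 246 CPM in B cells, and lowest in neutrophils at 117 and 135 CPM. Psmb9 was 332 and 315 CPM in plasmacytoid dendritic cells, 269 and 245 CPM in T cells with NK genes and 243 and 231 CPM in T cells. The other 4 types had 124 to 169 CPM with IPA and 103 to 160.5 CPM with CCl4 alone.

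Psmb10 set neutrophils apart, with 17.3 CPM with IPA and 21.1 CPM with CCl4 alone, resting on 36 and 48 UMIs. B cells had 72.6 and 73.4 CPM, and the other 5 types had 132 to 172 CPM with IPA and 125 to 175 CPM with CCl4 alone. Neighbours among these 5 were within counting error with IPA, though monocytes (144 to 205) lay above T cells (125 to 139). With CCl4 alone T cells stood clear below the other 4. The highest type was 9.99-fold (6.86 to 14.9) above neutrophils with IPA and 8.30-fold (6.02 to 11.6) with CCl4 alone.

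Set against the standard subunit each one replaces, the 3 immunoproteasome subunits did not move together across cell types. Psmb9 made its largest share of the Psmb9 and Psmb6 UMIs in neutrophils, 83.9% (79.8 to 87.5) with IPA and 75.7% (70.6 to 80.4) with CCl4 alone, against 56.5% to 70.6% and 56.3% to 68.7% in the other 6 types. Psmb10 made its smallest share of the Psmb10 and Psmb7 UMIs there, 33.3% (24.6 to 43.1) and 37.8% (29.3 to 46.8), against 57.3% to 69.1% and 60.4% to 73.7% in the others. Psmb8 made 70.2% and 76.2% of the Psmb8 and Psmb5 UMIs in neutrophils, close to the 69.4% and 73.2% of monocytes and below the 84.6% and 86.4% of plasmacytoid dendritic cells. Neutrophils were thus at the top of 1 pair and at the bottom of another in both libraries.

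**Figure D2:**
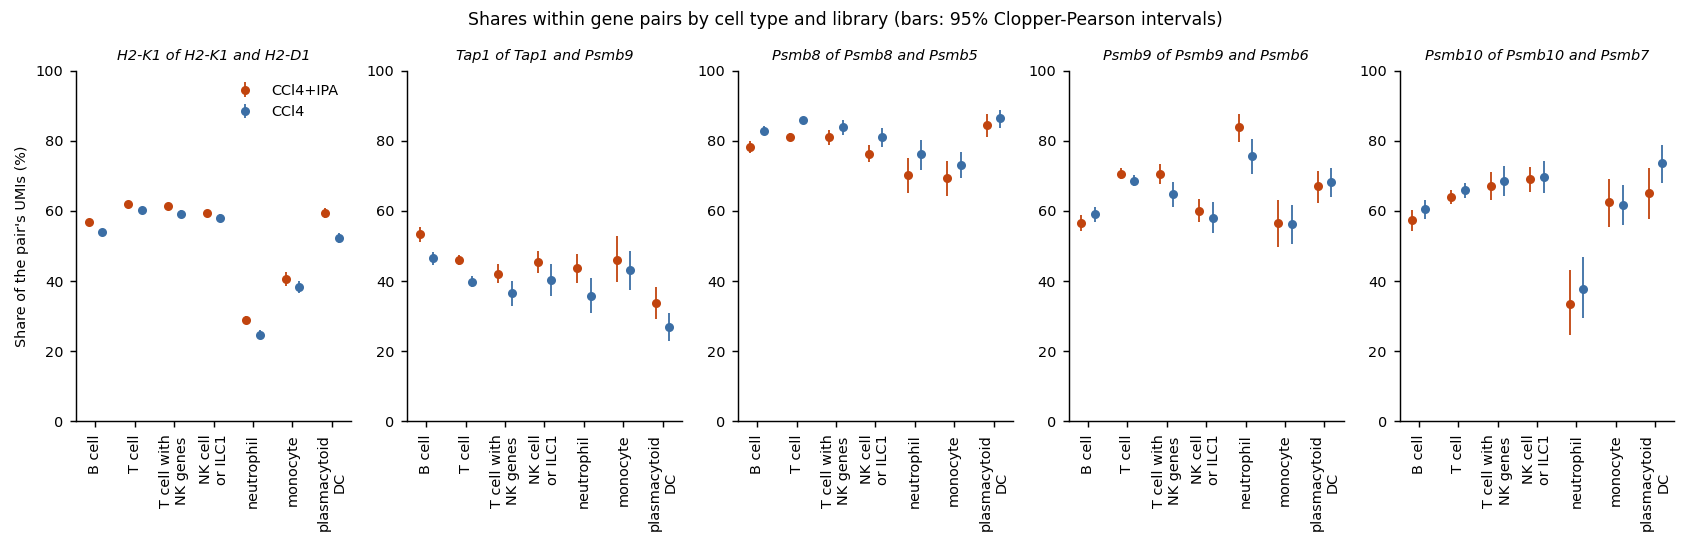
Share of the UMIs of a gene pair taken by the first gene (%) in the 7 main cell types, CCl4+IPA (orange) left of CCl4 (blue), with 95% Clopper-Pearson intervals. Neutrophils have the lowest H2-K1 share (28.8% and 24.8%), the highest Psmb9 share (83.9% and 75.7%) and the lowest Psmb10 share (33.3% and 37.8%).

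Between the libraries the 10 genes did not shift as a block. Relative to the median of all measured genes, Tap1, Tapbp and H2-T23 were higher with IPA in all 7 cell types, and Psmb8 was lower in all 7. Tap1 was farthest from 1 in neutrophils, at 116 CPM with IPA against 57.2 CPM with CCl4 alone, a ratio of 2.03 (1.63 to 2.53). Psmb8 ranged from 0.779 (0.714 to 0.849) in T cells with NK genes to 0.967 (0.822 to 1.14) in monocytes. Under each alternative setting the ratios of Tap1, Tapbp and H2-T23 stayed above 1 and that of Psmb8 below 1, except that Psmb8 in monocytes came out above 1 when cells were weighted equally (0.06 on the log2 scale) or thinned to 1000 UMIs (0.31).

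Tap1 had ratios of CCl4+IPA over CCl4 of 1.33 (1.23 to 1.45) in B cells, 1.36 (1.27 to 1.46) in T cells, 1.39 (1.20 to 1.62) in T cells with NK genes, 1.30 (1.10 to 1.55) in NK cells or ILC1 and 1.46 (1.14 to 1.87) in plasmacytoid dendritic cells, and in monocytes 1.24 with an interval of 0.959 to 1.61 that spanned 1. The interval of Tap1 lay wholly above the all-gene median in 4 of the 7 types. After thinning to 1000 UMIs, 13.03% (10.9 to 15.4) of neutrophils with IPA and 5.69% (4.15 to 7.59) with CCl4 alone had a Tap1 UMI. In T cells these shares were 19.0% and 14.7%.

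Tapbp was above 1 by its interval in all 7 types, with the largest ratios in monocytes at 1.70 (1.41 to 2.06), plasmacytoid dendritic cells at 1.62 (1.39 to 1.88) and T cells with NK genes at 1.53 (1.33 to 1.77) and the smallest in neutrophils at 1.22 (1.04 to 1.42). Among monocytes the Tapbp ratio was 1.26 (0.938 to 1.69) in cells of the classical list alone, 1.897 (1.45 to 2.49) in cells of both lists and 1.897 (0.839 to 4.02) in the few of the nonclassical list alone, so it was clear of 1 in only 1 of these 3 groups. The interval of Tapbp lay above the all-gene median in 5 types. H2-T23 likewise was above 1 in all 7, from 1.23 (1.16 to 1.30) in B cells to 1.40 (1.17 to 1.67) in monocytes, and above the median by its interval in 4.

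Psmb8 was below 1 by its interval in 5 types: 0.833 (0.783 to 0.886) in B cells, 0.845 (0.809 to 0.883) in T cells, 0.779 in T cells with NK genes, 0.829 (0.749 to 0.917) in NK cells or ILC1 and 0.864 (0.761 to 0.980) in plasmacytoid dendritic cells. Neutrophils (0.863, 0.726 to 1.024) and monocytes were unclear. Its interval lay below the all-gene median in 6 types. The share of Psmb8 in its pair, which does not depend on library totals, was lower with IPA in all 7 types, for example 81.2% (80.1 to 82.3) against 85.9% (84.9 to 86.9) in T cells and 78.3% (76.5 to 80.1) against 82.9% (81.6 to 84.2) in B cells, while the intervals overlapped in the other 5 types.

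The other 2 immunoproteasome genes behaved differently. Psmb9 was clear of 1 only in neutrophils, at 150.1 CPM with IPA and 103 CPM with CCl4 alone, a ratio of 1.46 (1.23 to 1.73), with the other 6 ratios between 1.01 and 1.10, all of them below the all-gene median. Psmb10 was lower by its interval in T cells with NK genes at 0.821 (0.704 to 0.957), NK cells or ILC1 at 0.855 (0.738 to 0.992) and plasmacytoid dendritic cells at 0.764 (0.601 to 0.967). Tap1 and Psmb9, which share the promoter stretch printed above, gave Tap1 a larger part of their summed UMIs with IPA in all 7 types. That part was 53.4% (51.3 to 55.6) against 46.5% (44.5 to 48.4) in B cells, 46.1% (44.6 to 47.5) against 39.8% (38.2 to 41.4) in T cells and 43.6% (39.4 to 47.8) against 35.7% (30.8 to 40.9) in neutrophils. The intervals of the 2 libraries were apart only in B cells and T cells and overlapped in the other types, neutrophils included.

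The 4 remaining chains were mostly higher than 1, but their direction depended on the scaling. Less the all-gene median, B2m and H2-D1 were above 0 in 2 of 7 types, H2-Q7 in 3 and H2-K1 in 4. With mitochondrial, ribosomal and immunoglobulin genes out of the total, B2m was above 0 in 3, H2-D1 in 2, H2-Q7 in 4 and H2-K1 in 5. H2-K1 was above 1 by its interval in all 7 types and largest in plasmacytoid dendritic cells at 1.58 (1.497 to 1.68) and neutrophils at 1.41 (1.31 to 1.51), yet below the all-gene median in B cells, T cells and NK cells or ILC1. H2-D1 was above 1 in all 7, from 1.04 (1.01 to 1.07) in B cells to 1.18 (1.11 to 1.26) in plasmacytoid dendritic cells, and below the median in 5. B2m was 0.999 (0.977 to 1.021) in B cells and 1.20 (1.14 to 1.26) in plasmacytoid dendritic cells, and below the median in 5. H2-Q7 was 1.496 (1.15 to 1.95) in neutrophils and 1.32 (1.20 to 1.44) in plasmacytoid dendritic cells, unclear in monocytes and in T cells with NK genes, and below the median in 4. The H2-K1 share of both classical chains was higher with IPA in plasmacytoid dendritic cells, 59.5% (58.0 to 60.9) against 52.3% (50.7 to 53.8), and in neutrophils. Hepatocyte RNA also differed in plasmacytoid dendritic cells. Alb, the albumin gene and not one of the gate's markers, was at 289.6 CPM with IPA and 1.82 CPM with CCl4 alone there, the second from 2 UMIs. The 10 hepatocyte markers of the gate summed to 77.3 CPM with IPA, with 5 of them at 0, and 1.82 CPM with CCl4 alone, with 8 at 0. In the other 6 types that sum was 10.6 to 30.2 CPM with IPA and 2.80 to 54.7 CPM with CCl4 alone. The part of this RNA in the ratios of plasmacytoid dendritic cells, H2-K1 and Tapbp included, was not tested.

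**Figure D3:**
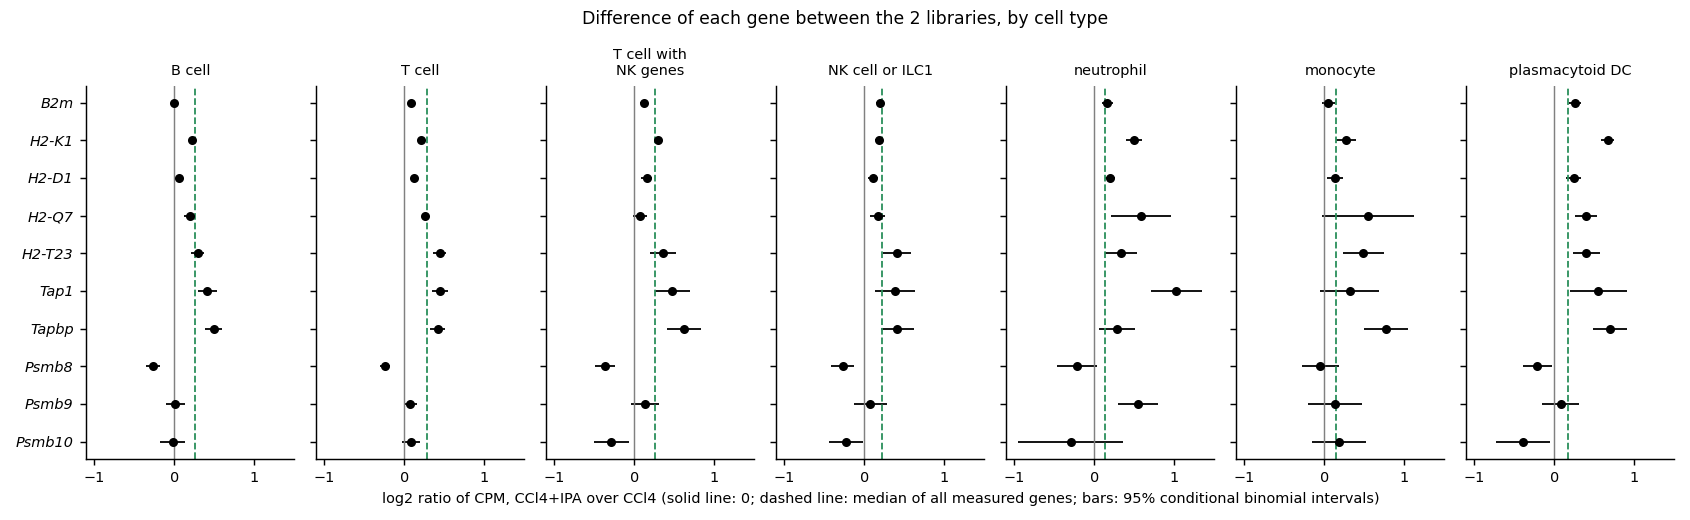
log2 ratio of CPM, CCl4+IPA over CCl4, of each gene in the 7 main cell types, with 95% conditional binomial intervals, a solid line at 0 and a dashed line at the median of all measured genes (0.14 to 0.28). Tap1, Tapbp and H2-T23 sit right of the dashed line in every panel and Psmb8 sits left of it in every panel.

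Counts of members read against all measured genes varied by cell type. In B cells 6 of 10 members had an interval above 1 and 1 below, against 42.3% and 4.88% of 12418 genes. In T cells it was 7 and 1, against 45.1% and 3.60% of 12943 genes. T cells with NK genes had 6 and 2, against 25.1% and 3.01%, and NK cells or ILC1 7 and 2, against 22.6% and 3.48%. Neutrophils had 8 and 0, against 17.2% and 3.83%, monocytes 4 and 0, against 13.9% and 3.63%, and plasmacytoid dendritic cells 7 and 2, against 15.9% and 3.56%. Abundant genes have narrow intervals, so these shares are not of genes of like depth. At least 1.5-fold lower was 0 of 10 in each type, against 4.55% of genes in B cells, 3.13% in T cells, 3.15% in T cells with NK genes, 3.11% in NK cells or ILC1, 4.94% in neutrophils, 6.89% in monocytes and 5.14% in plasmacytoid dendritic cells. At least 1.5-fold higher were 1 of 10 in T cells with NK genes (Tapbp, background 21.0%), 1 in neutrophils (Tap1, 14.2%), 1 in monocytes (Tapbp, 16.4%) and 2 in plasmacytoid dendritic cells (H2-K1 and Tapbp, 18.9%). There were 0 in B cells (15.7%), T cells (17.9%) and NK cells or ILC1 (18.8%), so by this measure the members stood near or below the background in each type. The call of H2-K1 depended on the gate. Its log2 ratio reached at most 0.54 in any type with 1 more marker asked for and 0.52 in clusters built without the pathway genes. With cells of several gates resolved it reached at most 0.56, and all 3 values are under 1.5-fold. That last setting held 349 and 393 plasmacytoid dendritic cells, against 171 and 193 in the main gate.

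Set against the all-gene median in place of 1, the balance of members above and below varied by cell type. The share of all genes on each side by this rule was not computed, so these counts have no background. Types with more UMIs give narrower intervals and so more calls on both sides. In B cells 2 members had an interval above the median and 5 below it, in T cells 3 and 6, in T cells with NK genes 1 and 5 and in NK cells or ILC1 1 and 3. Neutrophils had 4 above and 1 below, monocytes 3 and 1 and plasmacytoid dendritic cells 6 and 2. The median log2 ratio of the 10 members was 0.12 in B cells against 0.26 for all genes and 0.17 in T cells against 0.28. It was 0.31 in neutrophils against 0.14 and 0.33 in plasmacytoid dendritic cells against 0.18. Differences between cell types in these balances were not tested.

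T cells were divided by subset markers. CD8 T cells (1435 cells with IPA and 1182 with CCl4 alone) had 7 members above 1 and 1 below by interval, against 39.3% and 2.39% of genes, CD4 T cells (448 and 359) 2 and 1, against 18.8% and 3.30%, and regulatory T cells (451 and 257) 6 and 1, against 21.0% and 3.22%. Tap1 was 224 CPM with IPA and 159 CPM with CCl4 alone in CD8 T cells, 175 and 149 CPM in CD4 T cells, and 238 and 159 CPM in regulatory T cells. The ratio was 1.41 (1.29 to 1.54) in CD8 T cells and 1.496 (1.25 to 1.79) in regulatory T cells, and in CD4 T cells 1.18 with an interval of 0.980 to 1.41 that spanned 1. Tapbp in CD4 T cells was 175 and 182 CPM, a ratio of 0.961 (0.808 to 1.14). Psmb8 was below 1 by interval in all 3, at 0.857, 0.874 and 0.804. Regulatory T cells, which restrain other T cells, had the highest H2-K1 of the subsets at 3108 and 2735 CPM and Psmb10 at 94.4 and 88.8 CPM, against 107 and 103 CPM in CD4 T cells and 158 and 144 CPM in CD8 T cells.

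Rarer gates gave levels only. Type 2 conventional dendritic cells (44 with IPA and 166 with CCl4 alone) had H2-K1 at 1731 and 1139 CPM, with an H2-K1 share of both chains of 55.6% (52.5 to 58.7) and 45.6% (43.9 to 47.2), and H2-Q7 at 164 and 98.1 CPM. Plasma cells (24 and 29) had H2-D1 at 520 and 741 CPM and a Psmb8 share of 61.3% (48.1 to 73.4) and 63.1% (55.6 to 70.2), below every main type by its central value. Mesothelial cells (22 and 12), which line the liver surface, had H2-K1 at 1868 and 3606 CPM, H2-Q7 at 109.6 and 313 CPM and Psmb8 at 87.6 and 242 CPM, but Tapbp at 624 and 438 CPM. Hepatocytes (11 and 6) had B2m at 2374 and 1209.7 CPM but H2-K1 at 353 and 127 CPM, from 11 and 4 UMIs.

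Other genes of the pathway were read from lists chosen with earlier results of these data known. Among regulators of class I, 9 of 10 measured genes had an interval above 1 in B cells, 8 of 10 in T cells, 5 of 10 in T cells with NK genes, 6 of 10 in NK cells or ILC1, 4 of 8 in neutrophils, 4 of 8 in monocytes and 6 of 10 in plasmacytoid dendritic cells. The shares of all genes were 42.3%, 45.1%, 25.1%, 22.6%, 17.2%, 13.9% and 15.9% in the same order of types. None of the regulators had an interval below 1, and Rfxank, a subunit of the RFX complex that binds MHC promoters, was past 1.5-fold lower in T cells with NK genes at 10.8 CPM with IPA and 16.8 CPM with CCl4 alone, with an interval of the ratio (0.372 to 1.11) that spanned 1. The median log2 ratio of the regulators was 0.36 in B cells against 0.26 for all genes, 0.30 against 0.26 in T cells with NK genes and 0.52 against 0.14 in neutrophils. Irf1, a transcription factor that interferon gamma induces, was 354 CPM with IPA and 203 CPM with CCl4 alone in neutrophils (1.75, 1.55 to 1.97), 198 and 97.7 CPM in monocytes (2.02, 1.58 to 2.60) and 433 and 275 CPM in plasmacytoid dendritic cells (1.57, 1.35 to 1.84). Nlrc5, the activator of class I promoters, was 63.5 and 27.2 CPM in plasmacytoid dendritic cells (2.33, 1.47 to 3.77), from 55 and 30 UMIs. Also at least 1.5-fold higher were Nfkb1 in T cells (1.54), Rela in NK cells or ILC1 (1.63) and Irf8 in T cells with NK genes (1.57).

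Ifng, the gene of interferon gamma itself, was high in the T and NK types only. NK cells or ILC1 had 709 CPM with IPA and 638 CPM with CCl4 alone, T cells with NK genes 551 and 481 CPM and T cells 252 and 245 CPM, with ratios of 1.11 (1.03 to 1.19), 1.15 (1.05 to 1.25) and 1.03 (0.972 to 1.09), and at most 10.1 and 3.63 CPM in the other 4 types. At those low levels it was past 1.5-fold higher in B cells (67 UMIs with IPA and 33 with CCl4 alone) and neutrophils (21 and 3 UMIs). Ifngr1, the ligand-binding chain of its receptor, was 456 CPM with IPA and 314 CPM with CCl4 alone in T cells (1.45, 1.39 to 1.52), 521 and 351 CPM in T cells with NK genes (1.48, 1.35 to 1.63) and 787 and 578 CPM in NK cells or ILC1 (1.36, 1.27 to 1.47). In neutrophils Ifngr1 was 169 and 174 CPM (0.969, 0.837 to 1.12) and Ifngr2, the second chain, 115 and 144 CPM (0.797, 0.671 to 0.944). Ifngr2 in T cells was 29.1 and 17.95 CPM (1.62, 1.34 to 1.97). Jak1, a kinase of the receptor, was 158 and 103 CPM in plasmacytoid dendritic cells, a ratio of 1.54 (1.19 to 1.99).

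Of the other heavy chains, 4 of 7 measured were above 1 by interval in B cells, 5 of 7 in T cells, 4 of 7 in T cells with NK genes, 5 of 7 in NK cells or ILC1, 3 of 5 in neutrophils, 2 of 5 in monocytes and 4 of 7 in plasmacytoid dendritic cells, and 0 below, to be read against the same shares of all genes. Their median log2 ratio was 0.30 in B cells, close to the 0.26 of all genes, 0.39 in T cells against 0.28, and 0.52 in neutrophils against 0.14. H2-Q6, a Qa-2 chain like H2-Q7 that shares 10.5% of its 3′ windows with other genes, was 383 and 249.7 CPM in plasmacytoid dendritic cells (1.53, 1.30 to 1.81), H2-T22, a ligand of some gamma delta T cells, 98.2 and 48.0 CPM in monocytes (2.04, 1.43 to 2.93) and H2-M3, which presents formylated peptides, 55.3 and 35.2 CPM in NK cells or ILC1 (1.57, 1.17 to 2.13). Tap2, the partner of Tap1, was 133 and 102 CPM in T cells (1.30, 1.20 to 1.42) and 74.3 and 61.6 CPM in neutrophils (1.21, 0.954 to 1.53). Npepps, a cytosolic aminopeptidase, was the 1 other loading or trimming gene past 1.5-fold with enough counts, at 1.52 in B cells, 1.76 in T cells with NK genes and 1.64 in NK cells or ILC1. The standard subunits Psmb5, Psmb6 and Psmb7 had 1 of 3 above 1 in B cells and 2 of 3 in T cells, and 0 in the other 5 types. The shares of all genes were 42.3% in B cells, 45.1% in T cells and 13.9% to 25.1% in the other 5. The proteasome activator gene Psme1 was 440.2 and 447 CPM in T cells, a ratio of 0.984 (0.943 to 1.03), and 124 and 114 CPM in neutrophils (1.09, 0.910 to 1.30).

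The genes whose mean pattern over 20 points was most like each role group were ranked among 2965 genes. For the class I chains these were Nudcd3 (Pearson correlation 0.90), Tmem254a, Atrx, Wdr33 and Hdac1 (0.89). For the loading genes they were Otub1 (0.85), Rmnd5a, Sod1, Nono and Plekhb2 (0.79). For the immunoproteasome they were U2af1 (0.96), Eif5a, Hpf1, Atp5mpl and Nhp2 (0.91). The points share libraries and depth, and nothing on function follows from the likeness.

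Near-identical gene copies can split reads. In the last 500 bases of the longest annotated transcript, 0 of 410 windows of 91 bases in H2-K1, H2-D1 and H2-Q7 were also found in another gene's transcripts. H2-T23 shared 49 of 410 such windows (11.95%) with Hook2 and Rab33b, so its level is the less certain one. Psmb9 and Tap1 overlap by 212 bases at their starts on opposite strands.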

How the data were processed

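The authors deposited 1 matrix of unnormalised UMI counts per gene and barcode for each library, which the file headers credit to Cell Ranger 7.1.0. The submitters' processing notes name Cell Ranger and mm9. The labels' protocols describe collagenase IV digestion of liver, lysis of red cells and removal of dead cells. The handling of intronic reads and the cell-calling step are unknown.

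Barcodes with at least 500 UMIs, 300 genes and under 20% mitochondrial UMIs were kept, 10459 of 10471 with IPA and 10294 of 10427 with CCl4 alone, and Scrublet's 331 and 278 predicted doublets were removed (scanpy 1.11.5, Python 3.11.15). Cells were gated with 18 marker lists, at 3 distinct markers or 6 for hepatocytes. UMIs were summed per gate and library (37983923 and 45009730 UMIs deposited in all) and scaled to 1000000. Ratios carry exact conditional binomial intervals and shares exact Clopper-Pearson intervals, at 95%. Genes with 20 UMIs over both libraries counted as measured, and cell types with 100 cells per library were compared. A ratio of 1.5 counted as past the fold limit. The functions were tested on simulated data. Whether samples were 1 animal or a pool is unknown, and 1 library a group allows no replicate error and no p-value.

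The members and gene lists were chosen with earlier results of these data known. All 10 members are named. Pathway genes are named where past 1.5-fold with 50 UMIs and 50 CPM, except for 1 that is not reported here, and a few more (Ifng, Ifngr1, Ifngr2, Rfxank, Tap2, Psme1 and levels beside them) were chosen after their values were seen. Leiden clusters (2000 variable genes, 30 principal components, 20 neighbours, resolution 1), gates asking for 1 more marker, other filters, other scalings and thinning were tried as alternatives. Asking for 1 more marker of every list also made a second list harder to pass, so some gates grew. Plasmacytoid dendritic cells went from 171 and 193 to 303 and 326, while T cells with NK genes fell from 552 and 360 to 208 and 124.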

Additional observations from a re-analysis of the deposited data

How the results depend on the processing

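No member past 1.5-fold changed direction. Smaller differences did: both scalings below took B2m, H2-K1, H2-D1, H2-Q7, Psmb9 and Psmb10 below 0 in some types where they had been above it, thinning to 1000 UMIs took H2-K1 in monocytes to -0.0027 and the lowest log2 ratio of Psmb9 to -0.57, and equal weighting took that of Psmb9 to -0.05. Of the values that answer a comparison, 375 stayed within their limits and 57 moved, and the cause was not tested. Part of this tally was fixed in advance. Dropping the filter on low genes could not change the ratio of a member, and thinning to 500 UMIs must lower the share of cells with a UMI. For counts of members the limit was a 1.5-fold change of the count. The share of all genes was not computed under the alternatives, so the counts below have no background. The 2 scalings mattered most. They are not separate checks, as leaving mitochondrial, ribosomal and immunoglobulin genes out of the total also removed most of the shift of the median gene. Less the all-gene median, members with an interval above 1 became 2 in B cells, 3 in T cells, 1 in T cells with NK genes, 1 in NK cells or ILC1 and 4 in neutrophils, those below became 5, 6 and 5 in the first 3 types and 1 each in monocytes and neutrophils, and members 1.5-fold higher became 0 in T cells with NK genes and plasmacytoid dendritic cells, with 1 lower in T cells with NK genes. With mitochondrial, ribosomal and immunoglobulin genes out of the total, those above 1 became 2 in B cells, 3 in T cells, 3 in T cells with NK genes, 2 in NK cells or ILC1 and 2 in monocytes, those below 5, 5 and 4 in the first 3 and 1 each in monocytes and neutrophils, and members 1.5-fold higher again 0 in T cells with NK genes and plasmacytoid dendritic cells. Thinned to 1000 UMIs, those above 1 became 3 in NK cells or ILC1, 2 in monocytes, 5 in neutrophils and 4 in plasmacytoid dendritic cells, those below 0 in B cells, 1 in NK cells or ILC1, 1 in T cells with NK genes and 0 in plasmacytoid dendritic cells. Thinning and equal weighting of cells each gave 2 members 1.5-fold higher in monocytes and 1 lower in neutrophils. With 1 more marker asked for, 2 were 1.5-fold higher in neutrophils, 7 lay above 1 in monocytes, and 1 each below in T cells with NK genes and neutrophils. Leiden clusters, which have no class of T cells with NK genes, gave H2-Q7 in T cells over neutrophils as 11.2 with IPA and 12.6 with CCl4 alone, an H2-K1 share in neutrophils of 30.0% and 26.7%, and 1 member below 1 in neutrophils. Thinned to 500 UMIs, cells with H2-Q7 were 37.9% and 33.5% of T cells and 3.45% and 2.71% of neutrophils, and with Tap1 10.4% and 6.88% of T cells and 6.02% and 2.83% of neutrophils. Of 2 alternatives chosen after seeing the data, resolving cells with several gates gave 7 members above 1 in monocytes and 1 below in neutrophils, and leaving out the shallow CCl4 cluster gave 2 members 1.5-fold higher in neutrophils. No paired analysis was possible because each group has 1 library and no test was run.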

Other observations

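H2-Q10, a heavy chain best known as a soluble class I molecule made by liver, was listed at 485 CPM (456 to 516) with IPA and 405 CPM (379.6 to 432) with CCl4 alone in neutrophils, from 1011 and 921 UMIs. The other 6 main types had 5.31 to 22.4 CPM with IPA and 2.48 to 26.0 CPM with CCl4 alone. The hepatocyte gene Alb stood at 11.99 and 11.4 CPM in the same neutrophils. None of the 410 windows at the 3′ end of H2-Q10 occurred in another gene's transcripts. The gene was singled out after its values were seen.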
